A study of Mus musculus with 9 samples.

Results

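The cytosolic ribosomal protein genes are the protein-coding genes whose symbols start with Rpl or Rps followed by a digit, together with Rplp0, Rplp1, Rplp2 and Rpsa, leaving out the S6 kinases, Rps19bp1 and pseudogenes. By this rule 88 of 21631 mouse protein-coding genes were members. Of these, 77 carry the name of a canonical subunit and 11 are named for a paralogue or retrogene. For 81 members, at least 1 ATAC-seq peak overlapped the window of 1 kb on either side of an annotated gene end, and these members had 156 of the 18548 gene-end peaks among 146734 peaks in all. Each gene is described by its gene-end peak with the highest mean over all libraries, and the 81 genes had 81 different peaks. Chromatin accessibility was measured in D2A1-d, a line of murine breast carcinoma labelled wild type and untreated. In ATAC-seq a transposase cuts and tags open DNA, so more reads in a peak mean a more accessible site. There were 3 groups of 3 libraries each: cells transduced with a non-targeting control (NTC), cells with hairpin shMed4 #1 and cells with hairpin shMed4 #4, the last 2 directed at Med4, a subunit of the Mediator complex that connects transcription factors with RNA polymerase II. All groups share the 1 parental line, and a bulk value cannot tell apart a site that is less open in every cell from a site that is closed in some cells.

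Ribosomes translate messenger RNA, and each holds a small subunit that reads the message and a large subunit that joins amino acids and feeds the growing chain into an exit tunnel. Their proteins are needed in near equal amounts, are made in all growing cells and are encoded mostly by single active genes scattered over the chromosomes, while processed copies elsewhere are mainly silent. The promoters of these genes usually lack a strong TATA box, and transcription begins inside a run of pyrimidines, the terminal oligopyrimidine (TOP) sequence, through which growth signalling by mTOR controls translation of the mRNAs.

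Promoter sequence was taken from RefSeq (assembly GRCm38.p6), where 68 members matched 80 transcript starts out of 21045 protein-coding entries of the promoter table. An uninterrupted pyrimidine run of at least 5 bases that began with C at the start base was found in 18.8% of the members' promoters and in 2.2% of all promoters of the table. With the first base of the run allowed within 10 bases of the start, the shares were 51.2% and 29.4%. Below are 7 stretches from 50 bases before to 20 bases after the start, with that run in capitals. They show the most accessible member (Rps21), a member that fell and has the longest run of the 7 (Rpl35), and the member whose start fell while its far end rose (Rpl38). Also shown are members that were not called (Rps6, Rplp2 and Rpl28) and the member with the largest fall, which was at its far end (Rpl22). For each gene the RefSeq start nearest to its strongest start peak is printed. The printed Rpl22 start has no such run and lies inside the annotated gene. At the start peak of Rpl22 the log2 fold was -0.17.
Rps21, chr2:180257329-180257398, plus strand: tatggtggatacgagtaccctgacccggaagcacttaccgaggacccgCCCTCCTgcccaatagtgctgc
Rpl35, chr2:39005112-39005181, minus strand: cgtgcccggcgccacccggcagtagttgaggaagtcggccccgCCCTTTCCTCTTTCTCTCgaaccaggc
Rpl38, chr11:114668530-114668599, plus strand: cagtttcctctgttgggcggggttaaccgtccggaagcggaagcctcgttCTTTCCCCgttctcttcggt
Rps6, chr4:86857348-86857417, minus strand: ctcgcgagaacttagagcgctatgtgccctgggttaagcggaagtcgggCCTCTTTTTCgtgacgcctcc
Rplp2, chr7:141447601-141447670, plus strand: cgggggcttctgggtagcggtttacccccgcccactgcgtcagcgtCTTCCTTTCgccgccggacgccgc
Rpl28, chr7:4792915-4792984, plus strand: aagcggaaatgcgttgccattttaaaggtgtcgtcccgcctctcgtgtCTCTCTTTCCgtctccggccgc
Rpl22, chr4:152325676-152325745, plus strand: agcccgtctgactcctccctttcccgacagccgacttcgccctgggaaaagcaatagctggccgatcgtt
The run is 7 bases long in Rps21, 18 in Rpl35, 8 in Rpl38, 10 in Rps6 and in Rpl28, and 9 in Rplp2. Other motifs were counted on both strands of the whole promoter window. The ETS-type motif CCGGAAG was in 33.8% of the members' promoters against 11.7% of all promoters, and is visible in the Rps21 and Rpl38 stretches. AAGATGGC, a YY1-type motif, was in 10.0% against 3.1%, and TATAAA in 10.0% against 12.7%. Among members with a peak at the start, those with CCGGAAG had a median log2 fold (shMed4 against NTC) of -0.11 (25 genes) and those without it -0.15 (36 genes). With a pyrimidine run near the start the median was -0.11 (35 genes), and without it -0.16 (26 genes). For a run that begins at the start base itself the medians were -0.13 with it (13 genes) and -0.15 without it (48 genes). These differences are small and were not tested.

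The libraries held 44.8 to 98.9 M reads in peaks, with the shallowest, at 44.8 M, in the shMed4 #4 group, and a median of 110 to 247 reads per peak. Values are normalised reads per peak. All peaks have 1 width, so width does not separate the levels of different genes, but other differences between sites were not corrected. The peak at the Med4 start was lower in both hairpin groups, at 544 ± 24.2 (SD, n = 3) in NTC, 451 ± 23.5 with #1 and 469 ± 21.4 with #4 (log2 fold of shMed4 against NTC -0.24 ± 0.06 SE, limma adjusted p = 0.0017). A hairpin acts on the transcript, so this peak does not check the labels. Of the epithelial and mesenchymal markers, Vim (4155), Fn1 (2460), Krt8 (929), Zeb1 (186) and Krt18 (164) had gene-end peaks in NTC, whereas Epcam and Cdh1 had none. Of 11 leukocyte, endothelial and adipocyte markers, Csf1r (607), Spi1 (944) and Cdh5 (239) had a peak, and Ptprc, Cd3e, Cd79a, Adgre1, Pecam1, Tek, Adipoq and Plin1 had none. Some markers moved with the hairpins: the log2 fold of shMed4 against NTC was 1.33 for Krt18, 0.55 for Cdh5, -0.43 for Vim, -0.31 for Spi1, -0.14 for Csf1r and -0.12 for Krt8, all called by limma, while Fn1 (-0.03) and Zeb1 (0.00) were not called. Their part in the members' results was not tested.

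Every canonical gene with a start in the promoter table, 57 of 57, had a peak within 1 kb of that start. The only canonical gene with no gene-end peak was Rpl17, a large-subunit protein, whose nearest peak centre lay 1549 bp from a gene end. Genes named for a paralogue or retrogene mostly lacked a start peak: Rpl22l1, Rps27l, Rpl36al and Rpl7l1 had one and the other 7 (Rpl10l, Rpl32l, Rpl37rt, Rpl39l, Rpl3l, Rps23rg1 and Rps27rt) did not. Members without a gene-end peak besides Rpl17 were Rps23rg1, Rps27l, Rps27rt, Rpl32l, Rpl10l and Rpl39l, and the distance from their gene ends to the nearest peak centre ran from 1314 bp for Rps27l to 181237 bp for Rpl10l. By strand, the highest gene-end peak lay on the start side for 53 members, on the far side for 9 (Rpl22, Rps25, Rpl4, Rps2, Rpl7l1, Rpl3l, Rps15a, Rpl38 and Rpl37rt) and on a side not resolved for 19 members outside the promoter table. The peak also served the end of another protein-coding gene for 23 members.

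The members' peaks were strong in control cells, with a median NTC level of 1600 normalised reads, against 1190 over all genes with a gene-end peak and 184 over all peaks. The top member was Rps21, a small-subunit protein, whose peak at chr2:180257082-180257583 is shared with Cables2 and read 5844, 6195 and 6055 in the 3 NTC libraries, above 99.4% of gene-end genes. Rpl37 of the large subunit, at a peak shared with Card6, read 4338, 4673 and 4402, and its NTC values did not overlap those of Rps21.
Rps19, the small-subunit gene mutated in Diamond-Blackfan anaemia, read 3232, 3584 and 3598, and Rpl15, a large-subunit protein at a peak shared with Nkiras1, read 3434, 3445 and 3516. The ranges of Rps19 and Rpl15 overlapped, so their order is not resolved. At the other end stood Rpl37rt, a retrogene, with 52.5, 20.5 and 41.7, then Rps25 with 165, 145 and 159, and Rps23 with 254, 291 and 259. The weakest peaks include far-side peaks, such as those of Rpl37rt and Rps25, but the Rps23 peak has its centre 44 bp from a gene end.

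With both hairpin groups set against NTC in 1 contrast, 43 of the 81 members fell, 3 rose and 35 were not called (limma, Benjamini-Hochberg adjusted p under 0.05 over all 146729 tested peaks). The shares called lower were 53.1% of members, 43.4% of all genes with a gene-end peak and 26.2% of all peaks. For calls in the other direction they were 3.7%, 11.6% and 27.9%. The median log2 fold of the members was -0.12, with an interquartile range of -0.20 to -0.05, beside -0.11 for all gene-end genes (-0.22 to 0.00) and -0.02 for all peaks. The members' shift is thus close to that of gene ends in general, and most of it is small. The 3 NTC libraries were all above the 6 hairpin libraries for 23 members, beside 26.9% of all gene-end genes and 16.5% of all peaks. They were all below them for 1 member, Rpl38, beside 7.91% and 19%. The counts depend on the zero point: with every library centred on its gene-end peaks, 24 members were lower and 6 higher, while with centring on peaks away from gene ends 68 were lower and 1 higher. The members' median stayed negative in each of these, at -0.05 and -0.22. Centring moves all peaks of a library together, so the 43.4% above, from the main fit, is not the background for these counts. The shares over all gene-end genes with either centring are not given here, and the counts are not a result about the members alone.

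**Figure D1:**
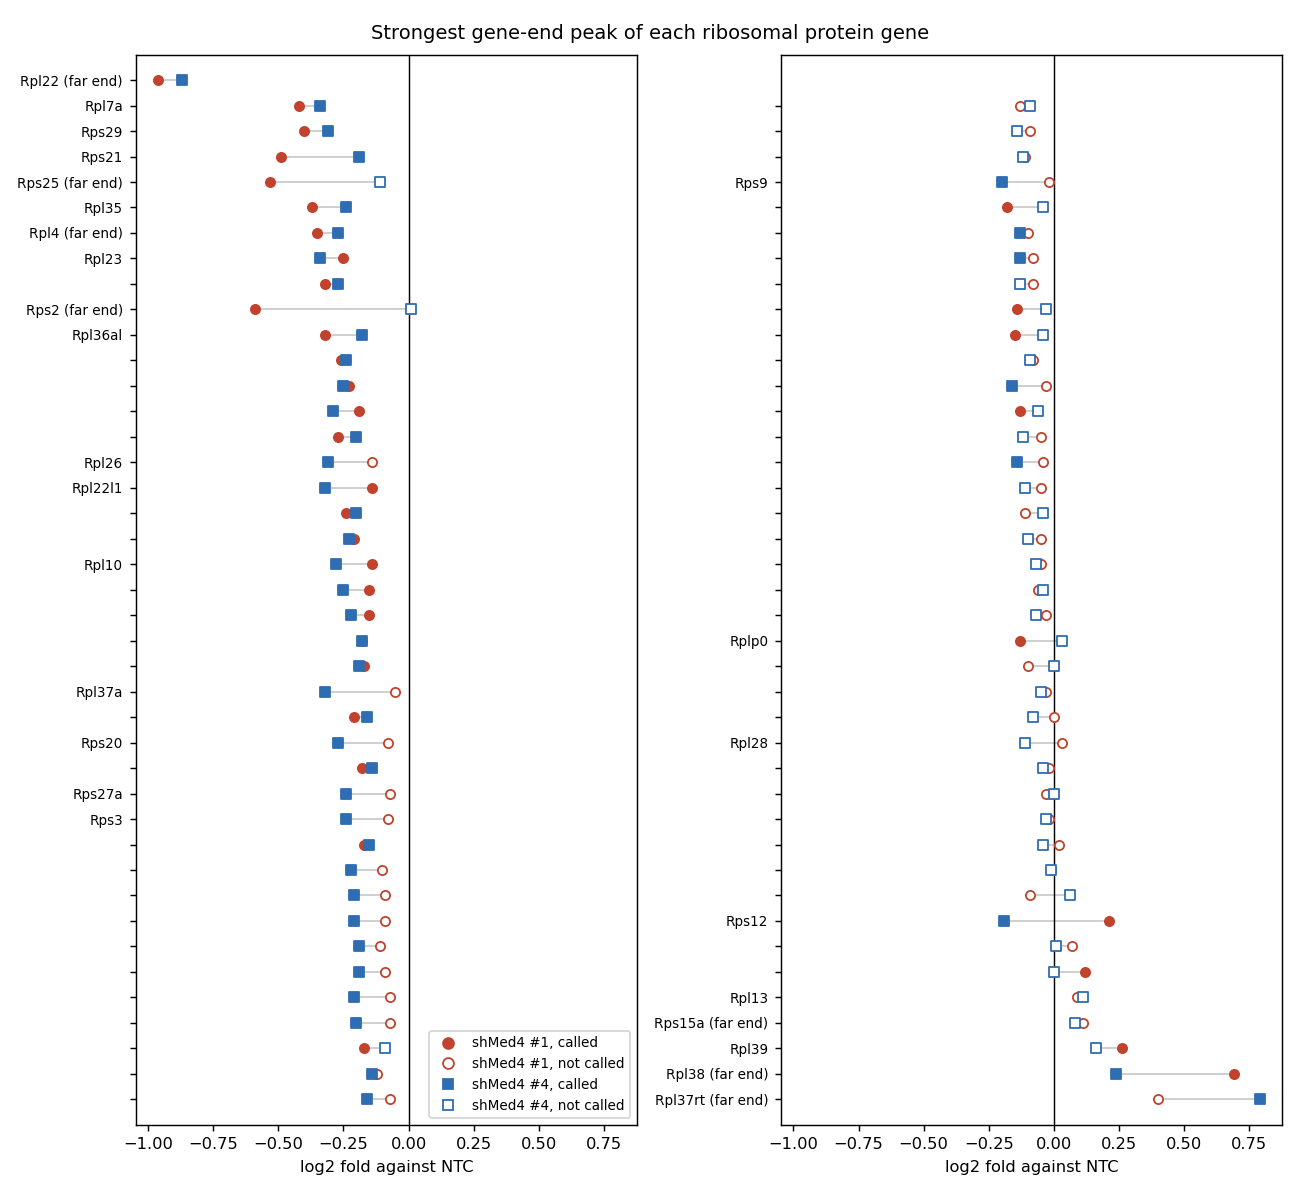
Log2 fold of shMed4 #1 (circles) and shMed4 #4 (squares) against NTC for the strongest gene-end peak of each of the 81 genes, sorted by the fold of both hairpins together. Filled symbols passed the limma test (adjusted p under 0.05), and a grey line joins the 2 hairpins. Names are given for the 8 lowest and 5 highest genes and those called between the hairpins. Most genes lie between -0.4 and 0 with both hairpins, Rpl22 lies apart at the low end, and Rpl38 and Rpl37rt lie at the high end.

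Among the 31 small-subunit genes with a gene-end peak, 20 fell, none rose and the median was -0.14. Those that fell included Rps29, Rps21, Rps25, Rps2, Rps7, Rps4x, Rps15, Rps14, Rps24, Rps20, Rps3a1, Rps27a, Rps3, Rps19, Rps27, Rps16, Rps10, Rpsa and Rps9, with log2 folds from -0.36 to -0.11. Among those not called were Rps26, Rps18, Rps6, Rps13, Rps23, Rps28, Rps12 and Rps15a, from -0.10 to 0.10. Rps6, the substrate that gives S6 kinase its name, was among the latter at -0.05.

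Rps29, a zinc-binding protein of the small-subunit head, read 3126, 3176 and 3213 in NTC, 2389.7, 2348 and 2457 with #1, and 2427, 2550.2 and 2699 with #4. All 6 hairpin libraries were below all 3 controls (log2 fold -0.36 ± 0.04 SE, limma adjusted p = 3.5e-09). Rps21 went from 5844, 6195 and 6055 in NTC to 4168, 4127 and 4642 with #1 and 4637, 5524 and 5802 with #4.
Every hairpin library of Rps21 lay below the controls, with #1 lowest (log2 fold -0.34 ± 0.05, limma adjusted p = 3.3e-07). Rps25, which takes part in initiation at internal ribosome entry sites, has only weak peaks here, and its value comes from a far-side peak shared with Ccdc84, at 165, 145 and 159 in NTC, 118, 97.3 and 109 with #1, and 128, 133 and 176 with #4. The groups overlapped through 1 library of #4 (-0.32 ± 0.12, limma adjusted p = 0.028), and the call was lost without NTC replicate 1 or 3, #1 replicate 2, or #4 replicate 1 or 2, with values of -0.31 to -0.28 in those fits. Rpsa, a small-subunit protein also known as the laminin receptor, read 1346, 1451 and 1419 in NTC, 1306, 1311 and 1387 with #1, and 1154, 1317 and 1312 with #4. Its groups overlapped and the fall was slight (-0.12 ± 0.05, limma adjusted p = 0.048). It was not called without NTC replicate 2 or 3, #1 replicate 1 or 2, or #4 replicate 1, at -0.11 to -0.08, and Rps19 (-0.15, limma adjusted p = 0.0096) was not called without NTC replicate 2 or 3, at -0.13 in both fits.

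Among the 45 large-subunit genes, the 3 stalk genes included, 20 fell and 2 rose, with a median of -0.11. Those that fell included Rpl22, Rpl7a, Rpl35, Rpl4, Rpl23, Rpl12, Rpl26, Rpl8, Rpl5, Rpl10, Rpl11, Rpl37a, Rpl36, Rpl36a, Rpl24, Rpl23a, Rpl14, Rpl27 and Rpl30. Rpl5 (-0.22) and Rpl11 (-0.18), which bind 5S ribosomal RNA and together restrain MDM2 when ribosome assembly fails, are both in that list. The genes not called were Rpl35a, Rpl31, Rpl15, Rpl19, Rpl29, Rpl41, Rpl18, Rpl3, Rpl32, Rpl27a, Rpl9, Rpl37, Rpl28, Rpl13a, Rpl10a, Rpl6, Rpl34, Rpl21, Rpl7, Rpl13 and the stalk genes. Small- and large-subunit genes were called lower in 64.5% and 44.4% of cases, and the difference between them was not tested.

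Rpl7a, a large-subunit protein whose peak is shared with the Mediator gene Med22, read 1101, 1093 and 1179 in NTC, 907, 792 and 825 with #1, and 912, 894 and 863 with #4. The groups did not overlap (log2 fold -0.38 ± 0.05 SE, limma adjusted p = 1.7e-07), and reads of the 2 genes' promoters cannot be told apart there. Rpl35, which sits beside the mouth of the exit tunnel, read 1596, 1638 and 1619 in NTC, 1122, 1253 and 1404 with #1, and 1261, 1450.3 and 1392 with #4. Again every hairpin library was below every control (-0.31 ± 0.05, limma adjusted p = 1.3e-05).
Rpl23 read 1201, 1204 and 1235 in NTC, 957, 1063 and 1039 with #1, and 842, 1055 and 993 with #4, without overlap (-0.30 ± 0.06, limma adjusted p = 3.7e-05). By contrast, the strong peak of Rpl37 read 4059.9, 4011 and 4447 with #1 and 4278, 4412 and 4699 with #4, overlapping its NTC values given above (-0.05 ± 0.04, limma adjusted p = 0.31). Rpl15 was likewise not called, with 3053, 3122 and 3639 for #1 and 2719, 3380.2 and 3409.7 for #4 (-0.11 ± 0.05, limma adjusted p = 0.079). A high level in control cells thus went with no call in Rpl37 and Rpl15 and with a fall in Rps21. Falls were also called at the strong peaks of Rps19 (-0.15), Rpl36 (-0.18, NTC mean 3438) and Rps29 (-0.36).

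The 3 stalk genes encode the acidic arm of the large subunit that recruits translation factors, and none was called with both hairpins together. Rplp0, the base of the stalk, read 2155, 2045 and 2082 in NTC, 1830.3, 1932 and 1987 with #1, and 1945, 2202 and 2274 with #4 (-0.05 ± 0.05, limma adjusted p = 0.39). Rplp1 read 1647, 1667 and 1690.3 in NTC, 1516, 1677 and 1605 with #1, and 1568, 1647 and 1635 with #4 (-0.05 ± 0.05, limma adjusted p = 0.33). Rplp2, at a peak shared with Pidd1, read 1829.8, 1743 and 1815 in NTC, 1582, 1648 and 1704 with #1, and 1684, 1728 and 1767 with #4 (-0.09 ± 0.04, limma adjusted p = 0.077), and was called without #4 replicate 3 (-0.10, limma adjusted p = 0.049).
In each stalk gene the NTC and hairpin values overlapped. With #1 alone Rplp0 and Rplp2 fell, both by 0.13 on the log2 scale (limma adjusted p = 0.046 and 0.035).

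The genes called higher were Rpl38, Rpl39 and Rpl37rt. Rpl39, a small protein of the exit tunnel, read 605, 725 and 738 in NTC, 824 in each library with #1, and 721, 802 and 776 with #4, where the lowest #4 value lies inside the control range (0.21 ± 0.06, limma adjusted p = 0.0034). Without NTC replicate 1, the lowest control, its log2 fold was 0.12 and not called (limma adjusted p = 0.12). The median log2 level of the peaks away from gene ends within 5 Mb of it, called the regional median here, was higher than in NTC by 0.58 with #1 and 0.63 with #4, and with that regional median removed from each library the Rpl39 value was -0.39 (limma adjusted p = 5.8e-06). Rpl37rt rose from 52.5, 20.5 and 41.7 to 59.2, 42.2 and 42.9 with #1 and 72.7, 61.4 and 54.7 with #4, with overlapping groups and few reads (0.60 ± 0.24, limma adjusted p = 0.032).
Without NTC replicate 2, the lowest control of Rpl37rt, its log2 fold was 0.22 and not called (limma adjusted p = 0.47), nor was it called without #1 replicate 1 (0.52) or #4 replicate 1 (0.55). Rpl13 had the next highest fold and was not called (0.10 ± 0.05, limma adjusted p = 0.069), with NTC values of 1513, 1576 and 1585, #1 values of 1568, 1687 and 1739.6, and #4 values of 1545, 1785 and 1737. Rpl13 was called higher without #1 replicate 1 (0.13, limma adjusted p = 0.038) or #4 replicate 1 (0.14, limma adjusted p = 0.0077). Its regional medians were above NTC by 0.38 and 0.31, and with them removed its value was -0.24 (limma adjusted p = 0.0005). Of the 5 genes named for a paralogue or retrogene with a gene-end peak, Rpl22l1 (-0.23), Rpl36al (-0.25) and Rpl7l1 (-0.11) fell, Rpl37rt rose and Rpl3l was not called (-0.07).

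The lowest log2 fold among the members, that of Rpl22, and the highest, those of Rpl37rt and Rpl38, came from far-side peaks. For Rpl22, an RNA-binding protein of the large subunit, the far-side peak at chr4:152332904-152333405 read 579.5, 577 and 652 in NTC, 314, 311 and 303 with #1, and 331, 357 and 302 with #4. Hairpin libraries were all far below the controls (-0.91 ± 0.07, limma adjusted p = 1.5e-13). Its start peak at chr4:152325566-152326067, whose centre is 90 bp from the RefSeq start printed above, read 1560.2, 1569 and 1526 in NTC, 1482, 1476 and 1503 with #1, and 1234, 1294 and 1335 with #4.
At the start the hairpin libraries were also below the controls, but the fold was smaller (-0.17 ± 0.05, limma adjusted p = 0.0023), and only #4 passed the test by itself (-0.27, limma adjusted p = 4.8e-05, against -0.06 and 0.33 for #1). At that start #4 was below #1 (-0.21 ± 0.05, limma adjusted p = 0.0015).

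Rpl38, which selects Hox mRNAs for translation in the embryo, moved in opposite directions at its 2 ends. The far-side peak at chr11:114673193-114673694, with its centre 1110 bp from the gene end and between Rpl38 and Ttyh2, read 1805, 1660.5 and 1697 in NTC, 2779, 2615 and 2918 with #1, and 1964, 2028 and 2118 with #4. These groups did not overlap, and #1 was highest (0.47 ± 0.05, limma adjusted p = 3.9e-11). The start peak at chr11:114668854-114669355 read 1286, 1259 and 1268 in NTC, 1107, 1085 and 1095 with #1, and 1054, 1047 and 1101 with #4, so that it fell without overlap (-0.23 ± 0.05, limma adjusted p = 7.6e-05).

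Rps2, a small-subunit protein near the mRNA entry channel, fell at both ends with #1 but only at the start with #4. At the start, chr17:24719791-24720292, it read 2038, 2199 and 2263 in NTC, 1813, 1961 and 2073 with #1, and 1719.7, 1990.0 and 2025 with #4 (-0.17 ± 0.05, limma adjusted p = 0.0055). At the far side, shared with Ndufb10, it read 474, 494 and 493 in NTC, 334, 305 and 332 with #1, and 581, 425 and 474 with #4. There #1 lay below all other libraries, and #4 spread around the controls. Rpl4, which lines the exit tunnel, fell at a far-side peak shared with Snapc5, from 1377, 1177 and 1229 to 1074, 975 and 924 with #1 and 1057, 1007 and 1062 with #4 (-0.31 ± 0.05, limma adjusted p = 9.9e-06).
At its start, in a peak shared with Zwilch, Rpl4 read 878, 881 and 942 in NTC, 877, 918 and 908 with #1, and 879.7, 882 and 826 with #4, and was not called (-0.03 ± 0.05, limma adjusted p = 0.65). A weaker peak also shared with Zwilch, chr9:64173195-64173696, has its centre 58 bp from the gene start and read 459, 447 and 470.4 in NTC, 399, 420.2 and 414 with #1, and 391, 418 and 419.8 with #4. It fell without overlap (-0.16 ± 0.07, limma adjusted p = 0.038), while neither hairpin passed the test by itself (limma adjusted p = 0.078 with #1 and 0.071 with #4).

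**Figure D2:**
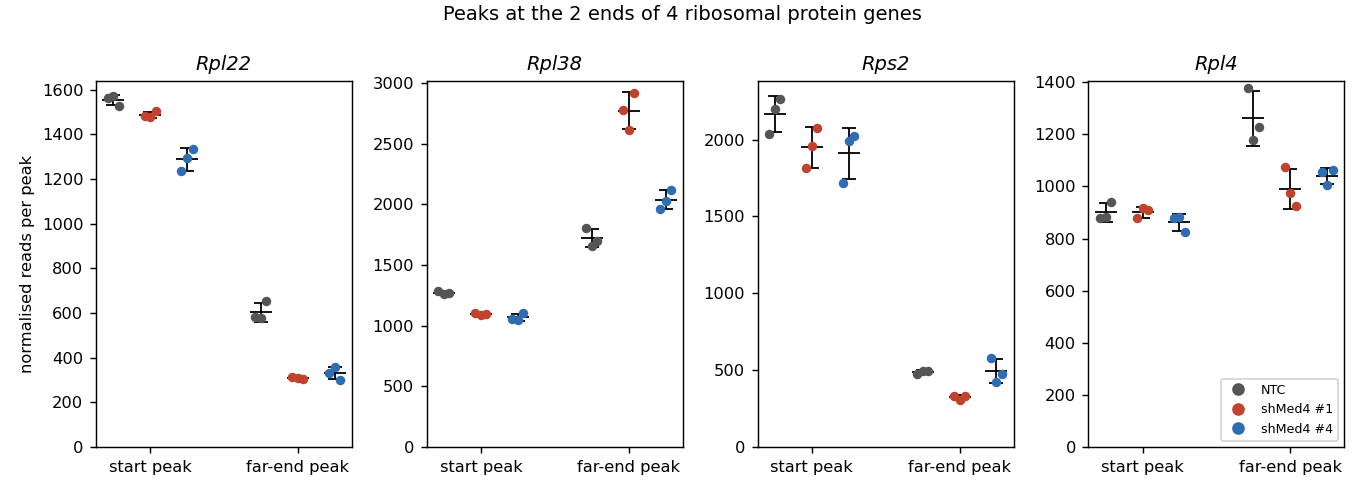
Normalised reads in the start peak and in the far-side peak of Rpl22, Rpl38, Rps2 and Rpl4, with 1 point per library and the mean with its SD (n = 3) for NTC, shMed4 #1 and shMed4 #4. Each vertical axis begins at 0, and the start peak is the strongest one near the start. The Rpl38 far-side peak is higher with both hairpins while its start peak is lower, and the Rpl22 far-side peak is lower in all 6 hairpin libraries.

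With the strongest peak within 1 kb of a RefSeq transcript start in place of the gene-end peak, a choice made after these far-side changes were seen, 61 members had a value. Of them 33 fell and 1 rose, with a median of -0.13, beside 45.9% lower, 9.63% higher and a median of -0.11 over the start peaks of all 9859 genes of the promoter table that had one. With #1 alone, 24 start peaks of members fell and 2 rose (36.6% and 9.35% over all start peaks), and with #4 alone 36 fell and none rose (45.3% and 9.39%). Set against #1, #4 was lower at 10 and higher at 4 (16.4% and 13.7%). The start-peak level in NTC had a median of 1496 for the members and 1334 for all genes. The lowest start fold belonged to Rpl19, a large-subunit protein whose gene-end peak was not called (-0.11, limma adjusted p = 0.082). The peak at chr11:98026711-98027212, whose centre is 252 bp from a RefSeq start, read 793, 764 and 788 in NTC, 631, 702 and 626 with #1, and 539, 526 and 534 with #4. The 3 groups were fully separate there, with #4 lowest (-0.41 ± 0.06, limma adjusted p = 1.9e-07). Rps27l, without a gene-end peak, had a strong start peak of 1466, 1461 and 1562 in NTC that was not called (-0.07 ± 0.05, limma adjusted p = 0.2).

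The hairpins were also compared singly with NTC, and these comparisons share the 3 NTC libraries. With #1, 32 members fell and 4 rose (background over gene-end genes 35.8% lower and 11.3% higher, over all peaks 24.9% and 27.9%), with a median of -0.10. With #4, 44 fell and 2 rose (41.8% and 11.2%, and 24.3% and 26.2%), with a median of -0.14. The calls overlapped in part: of the 81 members, 24 fell with both hairpins, 8 with #1 only and 20 with #4 only. Of the rest, 1 rose with both and 25 were called with neither. Among all 13063 gene-end genes, 3340 fell with both, 1336 with #1 only and 2125 with #4 only. In that background 940 rose with both and 4417 were called with neither. Falls with both were seen for Rpl10, Rpl11, Rpl12, Rpl22, Rpl22l1, Rpl23, Rpl24, Rpl35, Rpl36, Rpl36a, Rpl36al, Rpl4, Rpl5, Rpl7a, Rpl8, Rps14, Rps15, Rps21, Rps24, Rps29, Rps3a1, Rps4x and Rps7. These counts rest partly on single libraries: without #1 replicate 1, 19 members were lower with #1, and without #4 replicate 1, 28 were lower with #4.

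In each library, the median over members moved with the median over all gene-end genes. Relative to the NTC mean it was -0.15, -0.11 and -0.07 in the #1 libraries and -0.24, -0.12 and -0.08 in the #4 libraries, beside -0.14, -0.11 and -0.04, and -0.20, -0.08 and -0.06, for all gene-end genes. NTC libraries lay between -0.03 and 0.02 for the members. Peaks away from gene ends had medians of 0.01 to 0.03 in the hairpin libraries by this measure, the median of each peak's difference from its NTC mean. The centring and the regional medians described above used another measure, the median level of such peaks. Over all of them it was 7.36 to 7.37 on the log2 scale in NTC and 7.42 to 7.51 in the hairpin libraries. The library farthest from the controls, #4 replicate 1, is the deepest of its group, at 87.6 M reads in peaks against 61.0 and 44.8 M, and in both hairpin groups the shift was smallest in the shallowest library. The part of depth in these shifts was not tested.

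**Figure D3:**
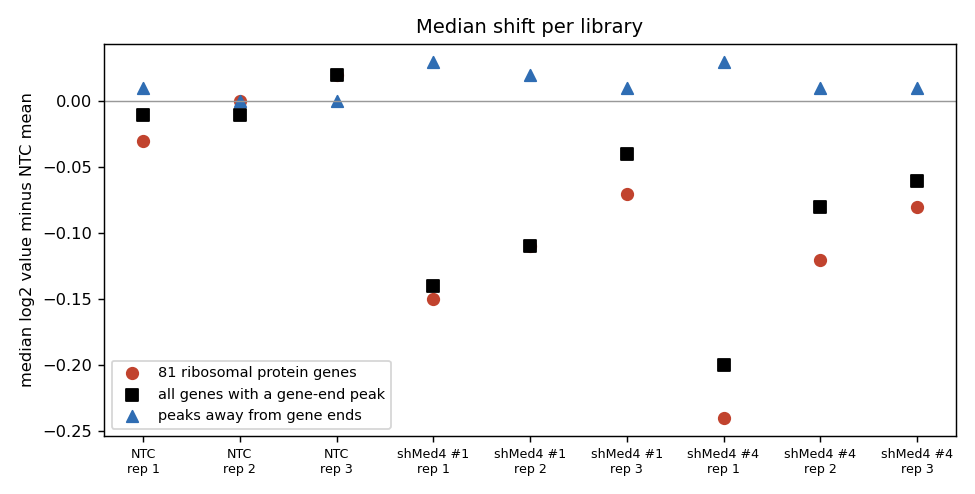
Median over genes or peaks of the log2 value minus its own NTC mean in each of the 9 libraries, for the 81 ribosomal protein genes (circles), all genes with a gene-end peak (squares) and peaks away from gene ends (triangles). In the hairpin libraries the circles stay within 0.04 of the squares and both lie below 0, with shMed4 #4 replicate 1 lowest at -0.24 and -0.20.

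Set directly against each other, #4 was lower than #1 for 11 members and higher for 5 (background over gene-end genes 16.1% lower and 14.6% higher, over all peaks 21.2% and 20.4%), with a median of -0.02. This split depended on the scaling, and #4 was lower for 9 members and higher for 12 with libraries scaled to equal totals, for 7 and 12 with centring on gene-end peaks, and for 5 and 18 with quantile normalisation. Without #4 replicate 1 it was 7 lower and 13 higher. The libraries of the 2 hairpins did not overlap for 20 members, with #4 below #1 for 16 (17.4% of gene-end genes and 24.6% of all peaks) and above it for 4 (13.6% and 23.5%). The largest difference was at the Rps2 far-side peak described above (log2 fold of #4 against #1 0.60 ± 0.09, limma adjusted p = 7.8e-07), and at the Rps2 start the hairpins gave -0.03. The Rpl38 far-side peak came next, with #4 below #1 in all libraries (-0.44 ± 0.05, limma adjusted p = 8.6e-09).

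Rps12, a small-subunit protein, was the only member called in opposite directions with the 2 hairpins. Its peak at chr10:23787087-23787588 read 765, 701 and 708 in NTC, 849, 829 and 834 with #1, and 615, 659 and 633 with #4. The 3 groups did not overlap, with #1 above the controls (0.21, limma adjusted p = 0.0057) and #4 below them (-0.19, limma adjusted p = 0.013), and the hairpins differed by -0.40 ± 0.06 (limma adjusted p = 3.2e-06). Its regional median was above NTC by 0.28 with #1 and 0.19 with #4, so the rise with #1 was below the shift of its regional median, and with regional medians removed the value of both hairpins together was -0.22 (limma adjusted p = 0.0023). Rpl37a, a large-subunit protein, read 1132, 1025 and 1061 in NTC, 993, 1068 and 1053 with #1, and 830.4, 863 and 887 with #4.
Its #4 libraries were below all others and #1 overlapped NTC (#4 against #1 -0.27 ± 0.06, limma adjusted p = 0.00032). Rps21 was higher with #4 than with #1 (0.30 ± 0.06, limma adjusted p = 4.5e-05), as was the weak Rps25 peak (0.42 ± 0.14, limma adjusted p = 0.018). The Rps25 difference was not called without #1 replicate 2 (0.35, limma adjusted p = 0.089) or without #4 replicate 3 (0.28, limma adjusted p = 0.14).

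The members lie on 19 chromosomes, and on chromosomes 2 and 12 their folds were lower and near those of other genes there. All 4 members on chromosome 2 (Rpl12, Rpl35, Rpl7a and Rps21) and all 3 on chromosome 12 (Rpl36al, Rps29 and Rps7) fell with both hairpins. Most genes there did too: 625 of 1022 gene-end genes on chromosome 2 and 305 of 429 on chromosome 12. In the contrast of both hairpins together, 82.1% and 86.2% of these genes were called lower. The members' medians were -0.32 and -0.25, beside -0.30 and -0.28 over all gene-end genes of these chromosomes. On the other chromosomes 36 of 74 members fell (48.6%), with a median of -0.11. The 43.4% of all gene-end genes is not a matched background for this share, since it includes chromosomes 2 and 12, where most genes fell. The share over gene-end genes of the other chromosomes alone is not given here. On chromosome 7, which has the most members (14), 5 fell (35.7%). Their median there was -0.09, against -0.04 for all gene-end genes of that chromosome, whose share called lower is not given here.
The regional median of Rps21 differed from NTC by -0.43 with #1 and -0.24 with #4, and with these removed the Rps21 value was 0.00 (limma adjusted p = 0.99). Rps29, on chromosome 12, kept a fall of -0.24 (limma adjusted p = 0.00031). With regional medians removed for all genes, 63 members were lower and 1 higher. The share of all gene-end genes under this setting is not given here. Regional medians use only peaks away from gene ends, whose median level was higher in the hairpin libraries than in NTC. These counts are thus not a result about the members alone.

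**Figure D4:**
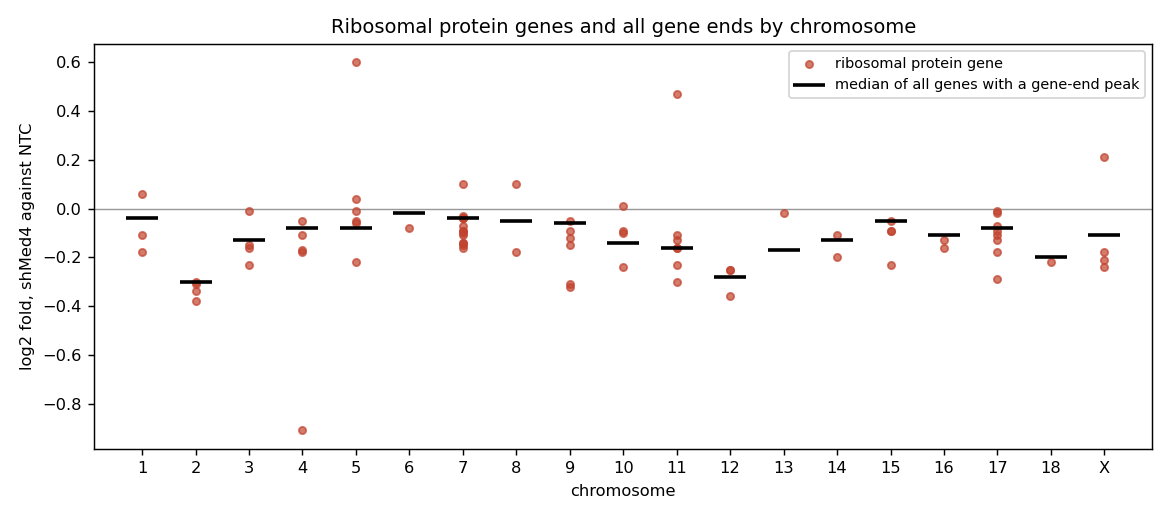
Log2 fold of shMed4 against NTC for each of the 81 ribosomal protein genes (points) by chromosome, with the median over all genes with a gene-end peak on that chromosome (black bars). Chromosomes 2 and 12 have the lowest bars, at -0.30 and -0.28, and the 7 members there lie near them.

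In the other lists of translation genes, the median log2 fold ran from -0.24 to -0.09. Of the 3 genes for further ribosome components, Rack1, the scaffold protein on the small-subunit head (-0.24, limma adjusted p = 1e-05), and Fau, which encodes a ubiquitin-like fusion to a small-subunit protein (-0.24, limma adjusted p = 0.00019, at a peak shared with Mrpl49), fell. Of 73 mitochondrial ribosomal protein genes with a gene-end peak, 32 fell and 5 rose (median -0.10). Mrpl24 (-0.36) and Mrps5 (-0.32) fell most and Mrpl3 rose most (1.29), at a far-side peak.
Initiation factors, which bring the small subunit to the mRNA, gave 19 lower and 1 higher of 42 (median -0.12). Among them Eif6 (-0.36), which keeps the subunits apart, and Eif1 (-0.34), which guards start codon choice, fell most, and Eif3k rose at a far-side peak (0.22). Of 10 elongation and termination genes 7 fell and none rose (median -0.15), led by Gspt1 and Abce1 (both -0.20), which act in termination and ribosome recycling. Ribosome biogenesis genes gave 42 lower and 2 higher of 87 (median -0.12), with Rrp1 and Riok1 lowest (both -0.38) and Utp14a highest (0.25).
RNA polymerase I and its factors, which make ribosomal RNA, gave 7 lower and 1 higher of 15 (median -0.14). The extremes were Taf1b (-0.32) and Polr1b (-0.27) on the low side and a far-side peak of Polr1a on the high side (1.44). Of 12 regulators of ribosomal protein genes 5 fell and 1 rose (median -0.09), with Zbtb7a (-0.43, far side), Yy1 (-0.36, on chromosome 12) and Mycn (0.36) at the extremes. Myc itself fell slightly over the combined hairpin groups (-0.11, limma adjusted p = 0.035), with overlapping groups. It fell with #1 (-0.21, limma adjusted p = 0.00075) but was at -0.01 with #4 (limma adjusted p = 0.88), and #4 was above #1 without overlap (0.20, limma adjusted p = 0.0018). Mtor, named after its value was seen, was not called (-0.01, limma adjusted p = 0.86). The shares lower in these lists can be read against the 43.4% of all gene-end genes given above.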

How the data were processed

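ATAC-seq values for 9 libraries of D2A1-d cells were used as deposited. The deposited unit is signal: reads in each peak of 1 shared peak set, normalised by the authors, and the values show 1 divisor per library. The submitters' processing notes list BWA, MACS2, featureCounts, Subread and Trim Galore, and the builds mm10 and GRCm38. Versions, and whether peaks were called on pooled reads, are not given in the sources used here. Each deposited column held whole multiples of 1 step (100% within 0.001 of a read), so whole reads could be recovered.

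Peaks were tied to genes of the RefSeq gene table (GRCm38.p6), which gives no strand, and strand was taken from the RefSeq promoter table. Coordinates are printed as deposited. limma 3.58.1 (R 4.3.3, lmFit and eBayes with a trend) was run on log2(value + 1) for 146729 peaks (mean at or above 10), in 1 fit over all libraries, with 4 contrasts and Benjamini-Hochberg adjustment over all tested peaks. Calls needed an adjusted p under 0.05. edgeR 4.0.16 and DESeq2 1.42.0 on recovered reads were alternatives, beside other scalings, windows, peak choices, a regional correction and leaving out each library. The transcript-start alternative was added after seeing the data. The fit was tested on simulated data. The libraries are titled as biological replicates, but whether they came from separate transductions is not given, so a p-value speaks only for the spread among them. Whether any 2 libraries were near copies was checked on recovered reads: chi-square per degree of freedom was 1.99 to 2.92 within groups and 9.96 to 29.06 between groups, and no libraries were merged. Deviations of same-numbered libraries correlated only weakly over peaks (-0.011 to 0.073). The members' median, however, rose with the replicate number in each group, and the labels do not say whether the numbers mark batches.

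Members named with full values are the 8 lowest and 4 highest folds, the 6 called members that differ most between hairpins, the 4 highest NTC levels, the stalk genes and Rpsa; others were named after their values were seen, and some members that the rule takes are not reported here. In other lists the 2 lowest and 1 highest called genes are named. The members and lists were chosen with earlier results of these data known. Figures were drawn with matplotlib 3.10.9, and tables handled with pandas 2.3.3, numpy 2.4.6 and the data.table package (version 1.17.8).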

Additional observations from a re-analysis of the deposited data

Results flagged for a closer look

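For 16 members the 2 hairpins gave effects that differed by the limma test of #4 against #1 (adjusted p under 0.05 over all peaks), beside 16.1% lower and 14.6% higher over all gene-end genes. The log2 folds of #4 against #1 were below 0 for Rpl38 (-0.44), Rps12 (-0.40), Rpl37a (-0.27), Rps20 (-0.19), Rpl22l1 (-0.18), Rps9 (-0.18), Rps27a (-0.17), Rpl26 (-0.17), Rps3 (-0.16), Rpl10 (-0.14) and Rpl28 (-0.13). They were above 0 for Rps2 (0.60), Rps25 (0.42), Rps21 (0.30), Rplp0 (0.16) and Rpl36al (0.15). Of the 5 positive ones, Rps2 and Rps25 come from far-side peaks, as does Rpl38 among the negative ones. Rps21 and Rpl36al lie on chromosomes 2 and 12, where #4 was called above #1 at 50.6% and 33.3% of gene-end genes. With regional medians removed the Rps21 difference was 0.11 and no longer called.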

How the results depend on the processing

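Counts of members called lower with shMed4 together, #1, #4, and #4 against #1 were 43, 32, 44 and 11, and of members called higher 3, 4, 2 and 5. They stayed within 1.5 times of these, in all 4 comparisons, under other pseudocounts, no filter, edgeR and DESeq2. Centring on gene-end peaks gave 24, 20, 20 and 7 lower and 6, 6, 5 and 12 higher. Centring on peaks away from gene ends gave 68, 53, 64 and 12 lower and 1, 2, 1 and 3 higher. Removing regional medians gave 63, 51, 60 and 14 lower and 1, 1, 1 and 3 higher. For none of these settings is the share over all gene-end genes given here. In #4 against #1, equal totals gave 12 higher and quantile normalisation 18 higher and 5 lower. An adjusted p under 0.01 gave 34, 21, 28 and 6 lower and 2, 3, 1 and 2 higher. The mean of all gene-end peaks gave 0, 1, 3 and 13 higher, and 7 lower for #4 against #1. The start-side end only gave 30, 21, 33 and 8 lower and 1, 2, 0 and 4 higher, and the transcript-start peak 1, 2, 0 and 4 higher. For #4 the nearest peak, the 200 bp window and a mean of at least 50 each gave 1 higher. The 200 bp window gave 3 higher for #4 against #1, and leaving out shared peaks 1 higher. The cause was not tested; windows, start sides and shared peaks also leave fewer genes.

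The replicate block gave 47, 38, 47 and 15 lower and 4, 4, 3 and 8 higher. Correlations of same-numbered libraries were -0.011 to 0.073, and those of unlike numbers -0.103 to 0.041. The numbers were not taken as pairs, though the members' median rose with the number in each group.

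Without single libraries, lower counts were 30 to 48, 19 to 38, 28 to 49 and 7 to 16, and higher counts 2 to 3, 3 to 4, 2 to 3 and 2 to 13. For #4 against #1 the higher count was 9 without #1 replicate 3, 13 without #4 replicate 1, 3 without #1 replicate 1 or #4 replicate 2, and 2 without #4 replicate 3. The lower count was 7 without #1 replicate 2, #1 replicate 3 or #4 replicate 1.

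Values that changed sign were the median of #4 against #1 (0.01 with equal totals, 0.02 with gene-end centring and with quantile normalisation, 0.06 with the mean of peaks, and a range of -0.06 to 0.03 without single libraries, at 0.03 without #4 replicate 1), Rpl13 (-0.24) and Rpl39 (-0.39) with regional medians removed, Rpl38 (-0.31 at the nearest peak, in the 200 bp window and at the start side, -0.23 at the transcript start) and Rps2 for #4 against #1 (-0.03 at the transcript start). Of 29 single-gene values and medians, 28 kept direction and call with edgeR (Rpl13 was called) and 27 with DESeq2 (Rpl37rt and Rpsa were not called). Depth limits the weak peaks most, those of Rpl37rt and Rps25.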

Other observations

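Peaks near the members showed changes that the strongest gene-end peak does not carry. Over all 156 gene-end peaks of members, 91 fell (58.3%) and 4 rose (2.6%) with both hairpins together, with a median log2 fold of -0.16. The shares were 26.2% and 27.9% over all tested peaks, and 43.4% and 11.6% over 1 peak per gene-end gene. Between the hairpins, #4 was higher at 34 member peaks (21.8%) and lower at 15 (9.6%), beside 20.4% and 21.2% over all tested peaks. Shares over all 18548 gene-end peaks are not given here. Around Rpl22, the next peak beyond the far side, at chr4:152334598-152335099, was called lower (-0.40, limma adjusted p = 0.025, NTC mean 113), with overlapping groups. By single hairpin it was called with #1 (-0.58, limma adjusted p = 0.0056) but not with #4 (-0.22, limma adjusted p = 0.3). The peak upstream of the start at chr4:152320637-152321138 was not called (-0.05). Around Rpl38, the peak that follows the raised far-side peak, at chr11:114675188-114675689 and at the end of Ttyh2, fell (-0.23, limma adjusted p = 0.00012), from a mean of 1772 in NTC to 1412 with #1 and 1619 with #4.

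Around Rps21, peaks at chr2:180248908-180249409 (-0.73) and chr2:180251174-180251675 (-0.28) fell, the latter called with #1 (-0.46) but not with #4 (-0.10). Nearer the gene, chr2:180251719-180252220 was not called (-0.01). Closer still, chr2:180255658-180256159 fell slightly with overlapping groups (-0.13, limma adjusted p = 0.033), by -0.29 with #1 and with 0.04 for #4. The regional medians at these peaks differed from NTC by -0.43 with #1 and -0.23 with #4. The hairpins also differed at the peaks on each side of the Rps12 peak. At chr10:23783196-23783697 the log2 fold was -0.44 with #1 and -0.13 with #4 (limma adjusted p = 6.7e-05 and 0.21, and 0.0049 for the difference of 0.31). At chr10:23788156-23788657 it was -0.18 with #1 and -0.50 with #4 (limma adjusted p = 0.26 and 0.0017, and 0.045 for the difference of -0.32). Beyond the far end of Rpl19, a weak peak at chr11:98035827-98036328, at an end of Stac2, rose from a mean of 51.9 in NTC to 215 with #1 and 264 with #4 (log2 fold 2.16, limma adjusted p = 6.5e-17). These sites were named after their values were seen.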
